A study of Homo sapiens with 4 samples.

Results

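Serine synthesis and folate one-carbon enzymes were followed in PANC-1, by its label a human line of pancreatic ductal adenocarcinoma, with and without knockout of CFL1, the gene of the actin-severing protein cofilin-1. The set holds 9 genes of the 59885 in the authors' deposited DESeq2 table of CFL1 knockout against control: PHGDH, PSAT1, PSPH, SHMT1, SHMT2, MTHFD1, MTHFD2, MTHFD1L and ALDH1L2. They were picked by gene symbol, and PHGDH had been seen to rise in this same contrast, so all values below describe the set and support nothing about how it was chosen. Total RNA of 2 control and 2 knockout samples was sequenced. The labels give neither the kind of control, nor the guide, clone or age of the cultures. They do not say that samples came from separate cultures, so the deposited p-values measure a spread that may be technical. That spread also holds a wide difference between the 2 controls, described below. All 9 genes had a deposited adjusted p and reads in every library.

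Cells make serine from the glycolytic intermediate 3-phosphoglycerate in a short chain: PHGDH oxidises it, PSAT1 transfers an amino group from glutamate, and PSPH removes the phosphate. Serine hydroxymethyltransferases, SHMT1 in the cytosol and SHMT2 in mitochondria, then split serine into glycine and a one-carbon unit carried by folate. MTHFD2, MTHFD1L and ALDH1L2 process that unit in mitochondria and MTHFD1 does so in the cytosol, feeding purine and thymidylate synthesis, methionine recycling and NADPH. Many of these genes are known targets of the stress transcription factor ATF4, and PHGDH is amplified or highly expressed in some cancers.

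Promoter sequences of 6 members matched by symbol in the RefSeq table of build GRCh38.p14: PHGDH, PSAT1, SHMT1, MTHFD1, MTHFD2 and MTHFD1L. Stretches of 4 are shown, those of the member that rose, of its neighbour in the chain, of the member whose deposited fold change was below 0, and of the one that held an ATF4-type element. Capitals mark CCAAT, or ATTGG for its other strand, and TGATGNAA, the core of the composite element that C/EBP and ATF factors bind. All lie on the + strand and end 1 base before the annotated start, except that of MTHFD1L, which spans bases 169 to 70 before it. Their positions are chr1:119711834-119711933, chr9:78297025-78297124, chr2:74198515-74198614 and chr6:150866317-150866416.
PHGDH: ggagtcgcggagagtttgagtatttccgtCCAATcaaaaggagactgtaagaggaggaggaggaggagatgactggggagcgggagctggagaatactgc
PSAT1: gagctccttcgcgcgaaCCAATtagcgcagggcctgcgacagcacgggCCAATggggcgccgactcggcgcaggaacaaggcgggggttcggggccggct
MTHFD2: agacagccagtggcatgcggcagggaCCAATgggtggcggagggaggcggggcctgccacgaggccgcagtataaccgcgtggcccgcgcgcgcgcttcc
MTHFD1L: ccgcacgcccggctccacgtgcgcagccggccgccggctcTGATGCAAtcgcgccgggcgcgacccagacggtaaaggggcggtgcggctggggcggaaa

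In the 250 bases before the start, searched on both strands, CCAAT stood in 6 of the 6 members and in 32.0% of 35116 promoters. TGATGNAA stood in 1 of 6, MTHFD1L, and in 3.14% of promoters. The E-box CACGTG, to which MYC binds, stood in MTHFD1 and MTHFD1L and in 6.34% of promoters, and the antioxidant response element TGACNNNGC in 0 of 6 members and 10.9% of promoters. The other motifs searched were the palindromic NRF1 site (1 of 6 members, 1.03% of promoters), TATAAA (1 of 6, 10.7%) and GGGCGG (3 of 6, 42.6%). The TGATGNAA match overlapped no CCAAT match. These matches are descriptions of letters in the reference and say nothing of binding in these cells.

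The deposited table has no column for single libraries, so reads per library were recovered from its base means. They are named control A, control B, knockout A and knockout B, and these letters cannot be tied to the numbered samples. Recovered reads of genes with a base mean under 10000 summed to between 12384866 and 14674667 per library. CFL1 had 6276 and 13761 normalized counts (reads divided by the library's size factor) in the control libraries, against 2285 and 2487 in the knockout libraries. Control B stood apart: over 17139 genes, log2(normalized count + 1) of the controls had a Pearson r of 0.71, against 0.98 to 0.99 for pairs of the other 3 libraries, a correlation across genes that are not independent replicates. Of the 8 ductal and epithelial markers, KRT8 and KRT18 have no recovered reads, and the other 6 had control B as their highest or lowest library. KRT19, a keratin of ductal cells, had 2481 normalized counts in control B, 1.82 in control A and 0 in both knockouts, whereas KRT7 had 108 in control B and from 3551 to 4000 in the others. EPCAM was at 42.5 in control B and from 6.36 to 16.2 elsewhere. Summed over the 6 ductal markers with recovered reads, controls A and B had 6598 and 6345 and knockouts A and B 9072 and 7962. Markers of other cell types, of which 10 of 16 had any read, summed to 424 and 3118 in the control libraries, against 792 and 652 in the knockout libraries. Control B's sum was mostly COL1A1, a fibroblast collagen (1574, and from 354 to 687 elsewhere), and CD68, a macrophage lysosomal gene (1217, and from 8.85 to 10.8 elsewhere). COL3A1 was at 279 in control B and from 26.4 to 69.1 elsewhere, and CD14 at 36.9 and from 8.85 to 9.71. The pan-leukocyte gene PTPRC had no read in 3 libraries, control B among them, and 0.89 in knockout A. All 4 samples carry the PANC-1 label, but whether control B came from the same cells as the other 3 libraries was not tested, nor was the part of these differences in the results. The difference of each enzyme from the controls is therefore described by library or against control A and control B separately.

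PHGDH (ENSG00000092621.11_2_PHGDH), which catalyses the first step of serine synthesis, was the 1 member of 9 that passed the test. It had 2891 and 2173 recovered reads in controls A and B and 6695 and 5143 in knockouts A and B, which are 2627, 2429, 5928 and 5546 normalized counts. The controls lay within 0.11 of each other on the log2 scale, the knockouts within 0.10, and the lower knockout was 2.11-fold above the higher control. The authors' deposited table gives PHGDH a log2 fold change of 1.18 with an SE (standard error) of 0.172. Its adjusted p from DESeq2, 1.01e-07, was the lowest of 16629 genes tested. The knockout mean stood 1.13 above control A and was 1.24 above control B on the log2(normalized count + 1) scale, a rise of like size with either control. Among all genes tested, 0.138% were called as higher in the knockouts, and 0.845% of those with recovered reads had both knockouts at least 2-fold above the higher control. With limma on the recovered reads of the 4 libraries the log2 fold change of PHGDH was 1.18 (SE 0.208) with an unadjusted p of 0.00394 and an adjusted p of 0.722, and limma called 0 genes in all, with 1.99% at an unadjusted p under 0.05, PHGDH being the 1 such member. Over 2 against 2 libraries no exact permutation test of a single gene can give a two-sided p below 0.333.

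PSAT1 (ENSG00000135069.13_2_PSAT1), the aminotransferase of the second step, had 3843 and 4474 normalized counts in the control libraries, against 4858 and 5251 in the knockout libraries. The lower knockout was 1.09-fold above the higher control, and the difference from control A, 0.39 on the log2 scale, was larger than that from control B, 0.17. PSAT1 did not pass the test, at a log2 fold change of 0.28 (SE 0.197, adjusted p 0.542 from DESeq2) in the authors' deposited table. PSPH (ENSG00000146733.13_2_PSPH), the phosphatase of the last step, had 404 and 498 in the control libraries, against 695 and 602 in the knockout libraries. The groups did not overlap, and the difference from control A was 0.68, compared with 0.37 from control B. In the authors' deposited table PSPH had a log2 fold change of 0.53 (SE 0.272, adjusted p 0.406 from DESeq2) and was not called.

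**Figure D1:**
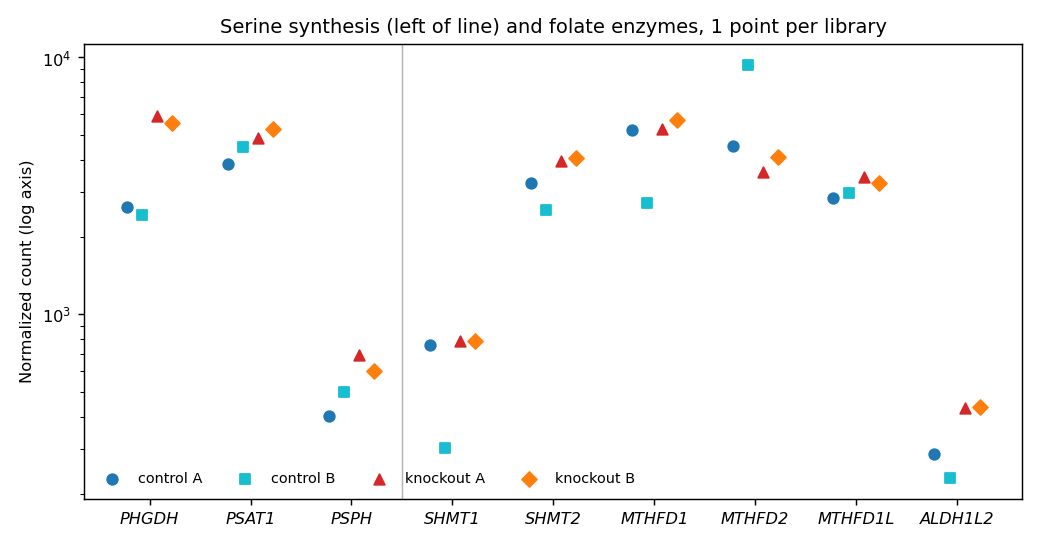
Normalized count (log axis) of each of the 9 enzyme genes in the 4 libraries, 1 point per library, with serine synthesis left of the line. PHGDH shows both controls together at 2627 and 2429 and both knockouts at 5928 and 5546, while control B stands apart for SHMT1, MTHFD1 and MTHFD2.

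Dividing normalized counts by the length of the longest coding transcript put the 3 steps on 1 scale. Serine synthesis genes together had 2958 and 3213 normalized counts per kb in the control libraries, against 4832 and 4822 in the knockout libraries. PHGDH made up 34.4% and 29.2% of this sum in the control libraries, against 47.5% and 44.5% in the knockout libraries. Per kb, the ratio of PHGDH to PSAT1 was 0.58 and 0.46 in the control libraries, against 1.03 and 0.89 in the knockout libraries, and that of PHGDH to PSPH was 5.49 and 4.11 against 7.19 and 7.77. In neither ratio did the groups overlap. PHGDH was chosen with its rise known, so these ratios and shares largely restate that rise.

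**Figure D2:**
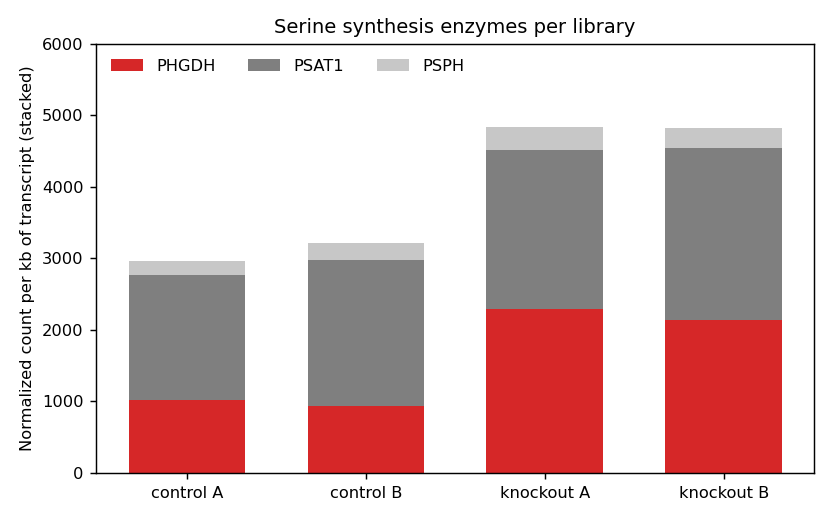
Stacked bars of normalized counts per kb of the longest coding transcript for PHGDH, PSAT1 and PSPH, 1 bar per library. The bars reach 2958 and 3213 in the control libraries, against 4832 and 4822 in the knockout libraries, with PHGDH the widest-varying segment.

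SHMT2 (ENSG00000182199.10_3_SHMT2), the mitochondrial enzyme that takes the one-carbon unit from serine, had 3244 and 2547 normalized counts in the control libraries, against 3969 and 4075 in the knockout libraries. The knockout mean was 0.31 above control A on the log2 scale, and 0.66 above control B. The authors' deposited table marks SHMT2 as upregulated by an unadjusted p of 0.0388, but its log2 fold change of 0.47 (SE 0.229) had a DESeq2 adjusted p of 0.372. SHMT1 (ENSG00000176974.19_3_SHMT1), the cytosolic form, had 758 in control A but 302 in control B, against 790 and 786 in the knockout libraries. Control B alone was low: the knockout mean lay 0.06 above control A, whereas it was 1.38 above control B. Its deposited log2 fold change of 0.57 had an SE of 0.532, and its adjusted p from DESeq2 was 0.646. The ratio of SHMT2 to SHMT1 per kb was 4.16 in control A, 4.88 and 5.03 in the knockouts, and 8.20 in control B.

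Of the 3 mitochondrial folate enzymes downstream of SHMT2, 0 passed the test, where 0.559% of all genes tested did. MTHFD2 (ENSG00000065911.11_2_MTHFD2), a dehydrogenase and cyclohydrolase that is low in most adult tissues and high in tumours, was the 1 member with both knockout libraries below both control libraries. It had 4534 and 9375 normalized counts in controls A and B and 3587 and 4081 in the knockouts. Control B was far above the other 3 libraries, and the knockout mean lay 0.25 below control A and 1.29 below control B. The table marks MTHFD2 as downregulated by an unadjusted p of 0.0475, and its deposited log2 fold change of -0.86 (SE 0.434) had a DESeq2 adjusted p of 0.390.

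MTHFD1L (ENSG00000120254.15_3_MTHFD1L), the synthetase that releases formate from mitochondria, was the most even member. It had 2838 and 2967 in the control libraries, against 3424 and 3235 in the knockout libraries, and a deposited log2 fold change of 0.20 (SE 0.164, adjusted p 0.610 from DESeq2). ALDH1L2 (ENSG00000136010.13_2_ALDH1L2), which oxidises formyl folate to carbon dioxide and yields mitochondrial NADPH, had 286 and 230 in the control libraries, against 431 and 435 in the knockout libraries. Its lower knockout was 1.51-fold above the higher control, the widest gap after PHGDH, and the knockout mean stood 0.59 above control A, as well as 0.91 above control B. The table marks ALDH1L2 as upregulated by an unadjusted p of 0.00855, and its log2 fold change of 0.74 (SE 0.283) had a DESeq2 adjusted p of 0.229. The ratio of MTHFD2 to ALDH1L2 per kb was 26.8 and 69.0 in the control libraries, against 14.1 and 15.9 in the knockout libraries.

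MTHFD1 (ENSG00000100714.15_3_MTHFD1), the trifunctional cytosolic enzyme that interconverts folate-bound one-carbon units, had 5243 in control A but 2707 in control B, against 5286 and 5722 in the knockout libraries. The lower knockout exceeded control A by only 1.01-fold. The knockout mean was 0.07 above control A but 1.02 above control B. The deposited log2 fold change of 0.47 had an SE of 0.405 and a DESeq2 adjusted p of 0.622. Summed per kb, the 2 cytosolic enzymes had 1077 in control A but 520 in control B, against 1096 and 1159 in the knockout libraries. The 4 mitochondrial enzymes had 3122 and 3962 in the control libraries, against 3376 and 3477 in the knockout libraries, where the groups overlapped.

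Across the set, 8 members had both knockout libraries above both control libraries and 1, MTHFD2, had both below, against 23.9% and 21.1% of 16458 tested genes with recovered reads. For SHMT1 and MTHFD1 this order rests on gaps of 1.04-fold and 1.01-fold. The table's own mark, an unadjusted p under 0.05, was set for 3 members as upregulated and 1 as downregulated, against 3.13% and 9.49% of genes tested. The contrast itself was in view when the set was chosen, so nothing is read from these shares. With control A left out, limma on the recovered reads called 6 of the 9 members along with 33.5% of all genes, and with any other library left out it called 0. The median deposited log2 fold change was 0.47 over the 9 members and -0.03 over all genes tested. Against control A the members' median was 0.31 and against control B 0.66, where all tested genes with recovered reads had medians of 0.005 and 0.013. The controls differed by a median of 0.31 in either direction over the members and of 0.87 over those genes, and the knockouts by 0.10 and 0.15.

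**Figure D3:**
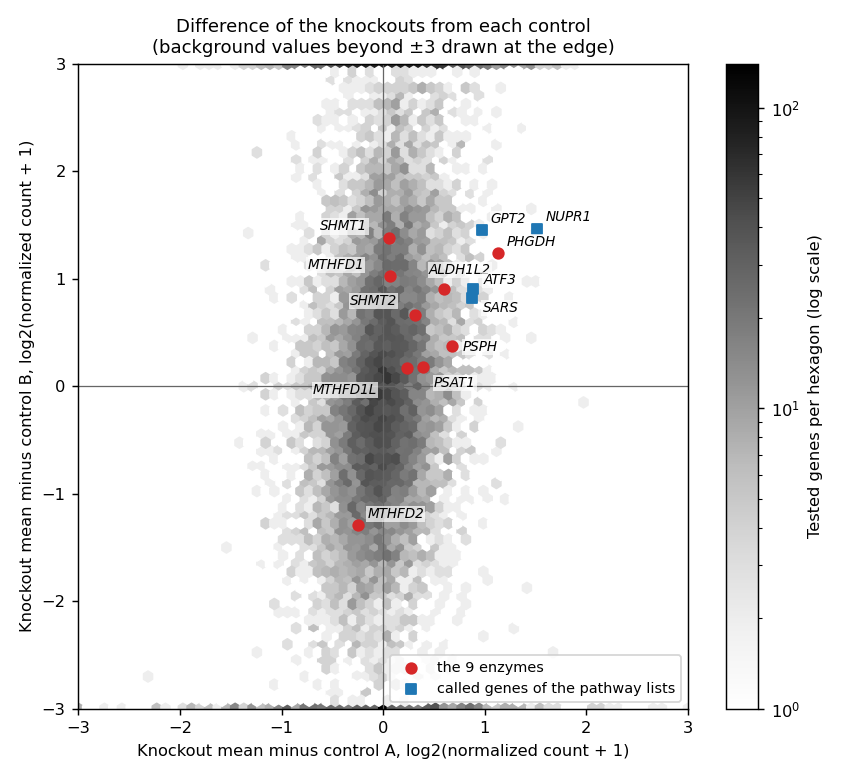
Mean of the knockouts minus control A (x axis) and minus control B (y axis), in log2(normalized count + 1), for the 9 enzymes (circles), the called genes of the pathway lists (squares) and all tested genes with recovered reads (grey hexagons). PHGDH lies at 1.13 and 1.24, while SHMT1 and MTHFD1 lie near 0 against control A and at 1.38 and 1.02 against control B.

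By mean level per kb over all 4 libraries the order was PSAT1 (2105), PHGDH (1599), SHMT2 (1363), MTHFD2 (1211), MTHFD1L (865), MTHFD1 (696), SHMT1 (267), PSPH (252) and ALDH1L2 (45.8). The order differed between libraries at its top. PHGDH, at 1016 and 940 per kb in controls A and B, ranked 4 in both, and at 2293 and 2146 in knockouts A and B it ranked 1 and 2. MTHFD2 ranked 1 in control B (2104) and from 3 to 5 in the others. Neighbours in the order of means overlapped between libraries at each step but 2. MTHFD1 had at least 397 per kb in each library and SHMT1 at most 321, and PSPH had at least 185 and ALDH1L2 at most 57.6. The lengths come from another annotation release than the authors' and the transcripts in use were not determined, so levels of genes with long untranslated ends, such as ALDH1L2, may be understated.

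Reads of other genes could bear on some members. In GENCODE release 29, exons of SHMT2, ALDH1L2, MTHFD1, SHMT1 and MTHFD2 overlap exons of genes on the other strand, among them NDUFA4L2, C12orf45, ZBTB25, SMCR8 and SLC4A5, and the sources used here do not say whether counting used strand. SMCR8 had a base mean of 1793 against 659 for SHMT1, and C12orf45 one of 893 against 346 for ALDH1L2. PHGDH, PSAT1 and PSPH had no overlapping gene there. Of 14 pseudogenes named after a member 10 had a base mean of 0, and the highest, SHMT1P1, had 12.2.

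The genes whose pattern over the 4 libraries lay nearest to that of PHGDH were C19orf70, PPP1R14B, CHCHD10, CACFD1 and GAS6. Likeness was the Euclidean distance between log2(normalized count + 1) values centred over the 4 libraries, which was 0.144 to 0.188 for these 5 among 11465 genes whose base mean reached 100. PPP1R14B, which encodes an inhibitor of protein phosphatase 1, had 376 and 326 normalized counts in the control libraries, against 768 and 693 in the knockout libraries. GAS6, a ligand of the receptor kinase AXL, had 333 and 340 against 692 and 694. Of the other members ALDH1L2 was the nearest, at a distance of 0.46 and rank 71, and MTHFD2 the farthest, at 2.13 and rank 9258.

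The other genes of the pathway were taken from 9 lists, written with earlier results of these data known, in which the calls of ATF3, NUPR1 and GPT2 were already in view. Of 97 tested genes of these lists 4 rose and 0 fell, where 0.138% and 0.421% of all genes tested were called upward and downward. All 4 belong to the ATF4 target list or the list of transcription factors and chromatin regulators. Of the 64 tested genes in the other 7 lists, all metabolic, 0 were called, where 0.559% of all genes tested were called in either direction. At so low a share, 0 calls over these lists or in any 1 of them is no result about their genes. The median deposited log2 fold change over the 97 was 0.04. The downward share of all genes includes genes that differ from control B alone. NID1, EREG and MMP2, chosen after their values were seen, were called downward. Their knockout means lay at 0 from control A and at -11.5, -11.5 and -9.6 from control B on the log2 scale. CFL1 lay at -1.40 and -2.53. How many downward calls were of either kind was not counted.

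Among 10 tested folate cycle enzymes 0 were called. TYMS, which makes thymidylate, had 2898 and 2934 in the control libraries, against 2688 and 2740 in the knockout libraries. The 4 genes of the glycine cleavage system had 0 calls and a median of 0.59, which was 0.34 relative to control A and 1.39 relative to control B. Its carrier gene GCSH had 2175 in control A but 625 in control B, against 2728 and 2447 in the knockout libraries, and DLD had 2579, 1504, 2403 and 2601 in the same order.

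Of 12 genes that carry folate or serine across membranes 0 were called, and the amino acid carriers SLC38A2 and SLC38A1, the most abundant, had deposited log2 fold changes of -0.15 and -0.18. The folate receptor gene FOLR1, chosen after its values were seen, had 0 reads in control B and 5359, 8106 and 8353 normalized counts in control A and the knockouts, and was not called (DESeq2 adjusted p 0.853). Methionine cycle and transsulfuration genes had 0 calls of 10. MAT2A, which makes S-adenosylmethionine, had 15459 normalized counts in control B and from 6365 to 6817 in the others, and AHCY had 2909 and 3472 in the control libraries, against 3235 and 3329 in the knockout libraries. MTAP, the salvage enzyme of methylthioadenosine, also chosen after its values were seen, had 27.9 in control B and from 1249 to 1549 in the other 3 libraries.

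Genes of purine synthesis, a pathway that draws on formyl folate, had 0 calls of 10 and a median of -0.08. PAICS and GMPS were at 0.08 and -0.06. The median was -0.02 relative to control A and -0.13 relative to control B. Genes of serine use and breakdown had 0 calls of 8 and a median of -0.02, with the phosphatidylserine synthases PTDSS1 and PTDSS2 at 0.03 and -0.07. The 10 glycolytic genes around 3-phosphoglycerate, the substrate of PHGDH, had 0 calls and a median of -0.21, and the 3 of them with recovered reads had medians of -0.40 and -0.07 relative to controls A and B. LDHA and ENO1, the most abundant, had deposited log2 fold changes of -0.11 and -0.89 with DESeq2 adjusted p of 0.827 and 0.406.

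**Figure D4:**
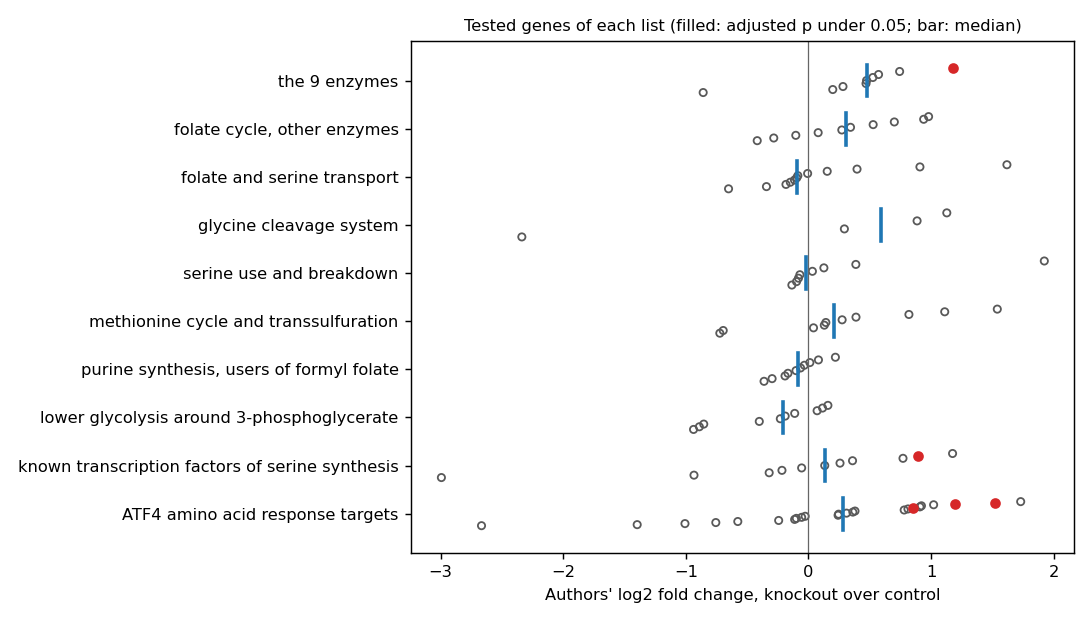
The authors' log2 fold change of each tested gene (points, spread vertically only for legibility), by list, with a bar at the median and filled points at a DESeq2 adjusted p under 0.05. The medians lie between -0.21 and 0.59, and the filled points are PHGDH, ATF3, NUPR1, GPT2 and SARS.

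Of 11 transcription factors and chromatin regulators known to act on serine synthesis genes 1 was called upward, ATF3, where 0.138% of all genes tested were. This call was in view when the list was written, so nothing is read from the count. ATF3 had 477 and 469 normalized counts in the control libraries, against 808 and 954 in the knockout libraries (deposited log2 fold change 0.90, DESeq2 adjusted p 0.0245). Deposited log2 fold changes were above 0 for 6 of the 11. ATF4, the factor best known for inducing these enzymes, had 1840 in control A but 4431 in control B, against 5749 and 4951 in the knockout libraries. Its knockouts lay well above control A and close to control B, and its deposited log2 fold change of 0.77 was not called (DESeq2 adjusted p 0.503). MYC had 3752, 1370, 5969 and 5602 in the same order and was not called (DESeq2 adjusted p 0.339). The mark of an unadjusted p under 0.05 was set for MYC and ATF3 as upregulated and for 2 others of the 11 as downregulated. These 2, chosen after their values were seen, were ATF5 and NFE2L2, with deposited log2 fold changes of -2.99 and -0.32. ATF5 had 1159 in control B and from 65.8 to 88.5 in the others. Among all genes tested, 3.13% and 9.49% were so marked.

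Among 24 ATF4 targets of the amino acid response 3 were called upward and 0 downward. For all genes tested the shares were 0.138% and 0.421%. The calls of NUPR1 and GPT2 were in view when the list was written, so nothing is read from this count. Deposited log2 fold changes were above 0 for 14 of the 24. STC2 and CHAC1, chosen after their values were seen, had -2.67 and -1.40 and were not called. NUPR1, a stress-induced chromatin protein, had 185 and 191 in the control libraries, against 650 and 432 in the knockout libraries. GPT2, the mitochondrial alanine transaminase, had 462 and 330 against 916 and 894, and SARS, the cytosolic seryl-tRNA synthetase that charges serine onto its tRNA, had 1898 and 1963 against 3782 and 3189. Their deposited log2 fold changes were 1.52, 1.19 and 0.85, with DESeq2 adjusted p of 0.00692, 0.0145 and 0.00769. The amino acid transporter chains SLC7A5 and SLC3A2, the most abundant of the list, had 0.81 and 0.78 and were not called (0.137 and 0.157). The median of the 23 targets with recovered reads was 0.78 relative to control A and -0.15 relative to control B, so the list's level relative to the knockouts differed between the controls. ASNS, asparagine synthetase, was chosen after its values were seen. It had 955 in control A but 4343 in control B, against 3428 and 3464 in the knockout libraries. For PHGDH, NUPR1, GPT2, ATF3 and SARS, all named as called upward, both controls lay below both knockouts. An upward call favours this order, so it adds nothing to their calls. The same order held for 10 of the 23 targets with recovered reads, the 3 called ones among them. It held for 23.9% of all tested genes with recovered reads.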

How the data were processed

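RNA of 2 control and 2 CFL1 knockout samples was sequenced. Per the submitters' processing notes, the tools were STAR, RSEM, cutadapt and FastQC, on build hg19, without versions. In the authors' deposited DESeq2 table, the base mean is a signal: size-factor normalized counts averaged over the libraries. Its log2 fold change and standard error are on the log2 scale, unshrunken, and its Wald score is their ratio, as the authors deposited them. Its p-values were deposited unadjusted and with Benjamini-Hochberg adjustment for 16629 genes, and calls are an adjusted p under 0.05.

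Base means were taken apart into whole reads per library. The steps that 1 read adds in each library are the base means shared by most genes with 1 read, and the sign of their fold change gives the group. Read combinations that give the printed digits were listed, and those were kept whose negative binomial fit, at the dispersion that the deposited standard error implies, gave the deposited fold change within 0.001 log2 (0.0001 at base means of at least 1000). Where only a single combination was found, it was also kept without this condition. This gave 30660 of 30662 genes with a base mean above 0 and under 10000, and 1 combination for each of the 9 members. Shifted base means gave a false solution for 0 of 450 genes under 3000, 2 of 150 between 3000 and 5500, and 3 of 150 between 5500 and 10000. The reads are rounded RSEM estimates.

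After tests on simulated data, limma 3.58.1 (R 4.3.3) was fitted to log2(normalized count + 1), with a prior variance that follows the mean, where that mean was at least 1. The simulated data had the same dispersion for all genes and both groups, whereas the real controls differed far more than the knockouts. Those tests therefore do not show how limma performs on these libraries. The alternatives took 0.1 as pseudocount, 10 as lowest mean, voom with TMM factors, no independent filtering, a base mean of at least 100, an adjusted p under 0.01 and leaving out each library. Python 3.11.15, numpy 2.4.6, pandas 2.3.3, scipy 1.17.1, numba 0.67.0 and matplotlib 3.10.9 were used. Members and lists were chosen with earlier results of these data known. Named genes are the members, CFL1, cell type markers, the 5 genes nearest to PHGDH, pseudogenes of members, and of each list the called genes and the 2 with the highest base mean, of which 1 is not reported here. Genes overlapping members, and those said in the text to be so chosen, were added after values were seen. The 106 list names hold 2 alternative symbols, and 97 of 104 genes were tested.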

Additional observations from a re-analysis of the deposited data

How the results depend on the processing

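With no independent filtering, an adjusted p under 0.01 or a base mean of at least 100, PHGDH stayed called in the deposited values as the 1 member, with 78, 62 and 77 called genes in all against 93, and 4, 2 and 4 pathway genes against 4. On recovered reads limma called 0 members, 0 genes in all and 0 pathway genes as run in the report, with 0.1 as pseudocount and with 10 as lowest mean, and so did voom with TMM factors, with 495, 469, 259 and 433 genes at an unadjusted p under 0.05. Leaving out each library, where the lone one of a group is assumed to vary like the other group, gave 0 to 6 called members, 0 to 8305 genes and 0 to 41 pathway genes. The upper ends came from leaving out control A, whereupon 33.5% of all genes were called and the members called were PHGDH, SHMT1, SHMT2, MTHFD1, MTHFD2 and ALDH1L2. Leaving out control B, knockout A and knockout B in turn gave 0 calls each, with 3195, 81 and 78 at an unadjusted p under 0.05. The log2 fold change of PHGDH lay between 1.13 and 1.24 when each library was left out, that of MTHFD2 between -1.29 and -0.25, that of SHMT1 between 0.06 and 1.38 and that of MTHFD1 between 0.07 and 1.02. Of the 72 values of members from fits to recovered reads 0 changed sign against the deposited ones. As no member overlapped between the groups, this was fixed beforehand, save for voom with TMM factors, whose normalization differs. No paired analysis was possible because the table ties no value to a sample number. Genes at or above a base mean of 10000, such as LDHA, ENO1 and SLC7A5, have no values per library here.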
